A study of Mus musculus with 3 samples.

Results

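Foxc1 and Foxc2 are closely related forkhead transcription factors, and chromatin immunoprecipitation followed by sequencing (ChIP-seq) had been run for each of them on kidney glomeruli of C57BL/6 mice aged 8 weeks. The labels list 1 library for the Foxc1 antibody, 1 for the Foxc2 antibody and 1 of input DNA, all from glomeruli isolated with magnetic beads, and they name no genotype or treatment. The antibodies came from different makers, Foxc1 from CST (D8A6) and Foxc2 from R&D Systems (AF6989), so antibody and factor cannot be told apart in any difference between the lists. Described here are the Foxc2 peaks that no Foxc1 peak overlapped by 1 bp or more and whose summit lay inside the span of a protein-coding gene, more than 1 kb from the end of any protein-coding gene. There were 694 of them among 2878 Foxc2 peaks on chromosomes 1 to 19, X and Y (24.1%), and among 8085 peaks of both lists together. They made up 28.3% of the 2453 Foxc2 peaks without a Foxc1 peak (exact Clopper-Pearson 95% interval 26.5 to 30.1%). The overlap and the place chose these peaks, so neither is a finding. With 1 library per antibody there was no replicate and no test between conditions, and every interval below covers counting error over peaks or genes only. Sequencing depth is unknown, since a peak list holds no read counts, and a Foxc1 site too weak to be called would leave its Foxc2 peak in this set. Glomeruli hold podocytes, endothelium, mesangial cells and some parietal epithelium, and a peak list does not say in which of these cells the factor was bound.

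Forkhead proteins bind DNA through a winged-helix domain that reads letters close to GTAAACA or ATAAACA. Foxc1 and Foxc2 have nearly the same domain, and both act in the development of vessels, eye and kidney and are expressed in podocytes, the cells whose interlocking foot processes and slit diaphragms form the outer layer of the filter. Binding inside a gene can fall on an enhancer, often in an intron, or on the promoter of a shorter transcript. Exons and introns were not resolved here.

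Many of these peaks, although more than 1 kb from the outer ends of genes, lay at a transcription start that RefSeq lists inside the gene. Start sites were taken from the RefSeq promoter table of GRCm38.p6 (the assembly called mm10), which holds several starts for many genes and none for chromosome 18, so 669 of the 694 peaks could be placed. Of these, 229 had their summit within 1 kb of a listed start (34.2%, exact 95% interval 30.6 to 38.0%), 164 of them within 0.3 kb and 76 within 0.1 kb. Among all Foxc2 peaks outside chromosome 18 the share was 53.7%, and among Foxc2-only peaks at gene ends 81.2%. The start belonged to the gene that held the peak in 204 cases, and in the other 25 to a noncoding gene. Summits lay on both sides of the start, 101 upstream and 128 downstream, with a median offset of 29 bp downstream. In 131 of the 229 the nearest gene end was within 5 kb, and in 98 it was farther. Not every host gene has a listed start. Among the 549 peaks whose host has one, 226 lay within 1 kb of a listed start (41.2%). The peaks beyond 1 kb thus include some in genes without a listed start.

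**Figure D1:**
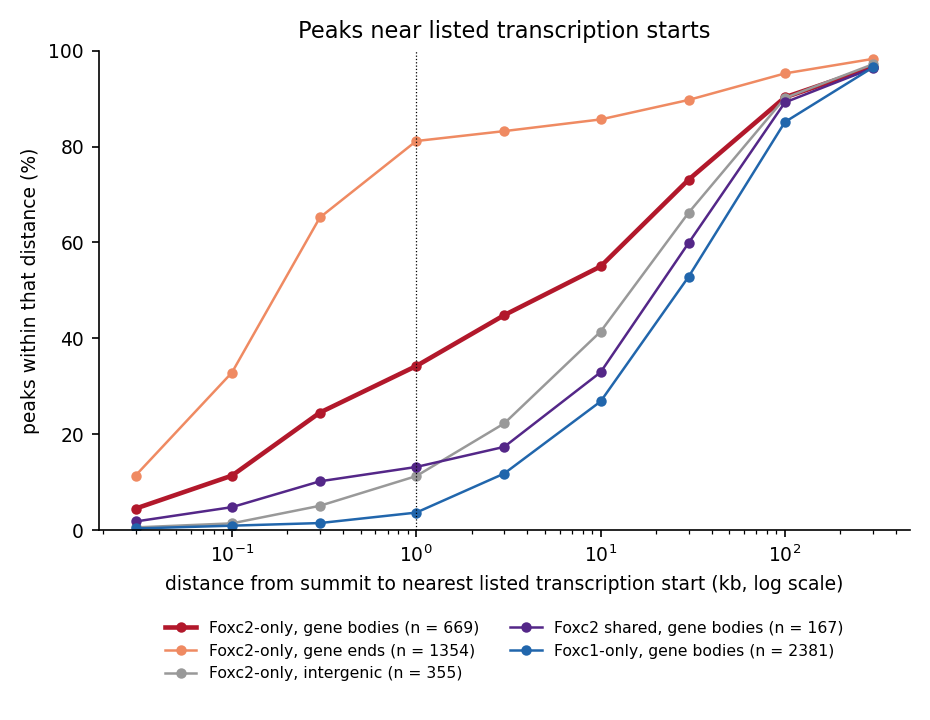
Cumulative share of peaks (vertical axis, %) against the distance from the summit to the nearest listed transcription start (horizontal axis, kb, log scale), for 5 classes of peaks outside chromosome 18; the dotted line marks 1 kb. At 1 kb the Foxc2-only gene-body peaks stand at 34.2%, between Foxc2-only peaks at gene ends (81.2%) and Foxc1-only gene-body peaks (3.65%). The gap to the gene-end class follows at least in part from the rule of place.

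Gene-body peaks chosen by the same rule of place but with Foxc1 lay at listed starts less often by count. Of 2381 Foxc1-only peaks inside gene bodies, 87 did (3.65%, exact 95% interval 2.94 to 4.49%), and of 167 Foxc2 peaks inside gene bodies that a Foxc1 peak overlapped, 22 did (13.2%, exact 95% interval 8.44 to 19.3%). Neither interval reaches the one of the Foxc2-only peaks, but they cover counting error over peaks and not variation between libraries. The difference between antibodies rests on 1 library each and was not tested.

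Sequences are shown for peaks whose summit fell inside a listed promoter window, which runs from 250 bases before to 50 bases after a start, because only there do the files hold sequence. There were 96 such peaks. Their windows were rich in CpG, with a median of 32.5 CpG dinucleotides in 300 bases (quartiles 25.75 and 40) and a median GC content of 71.3%, against 7 CpG and 52.7% GC over all 32851 listed windows. The first 3 lines are the strongest of them, each given as the 250 bases before the start, 5′ to 3′ on the gene's strand, with CpG dinucleotides in capitals.
Rbms1 (chr2:60881439-60881688, minus strand): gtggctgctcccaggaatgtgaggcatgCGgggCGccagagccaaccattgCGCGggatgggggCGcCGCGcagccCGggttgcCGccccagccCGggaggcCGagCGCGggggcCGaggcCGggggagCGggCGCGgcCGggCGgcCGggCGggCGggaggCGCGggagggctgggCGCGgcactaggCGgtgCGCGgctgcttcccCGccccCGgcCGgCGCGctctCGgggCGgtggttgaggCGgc
Zmym5 (chr14:56811465-56811714, minus strand): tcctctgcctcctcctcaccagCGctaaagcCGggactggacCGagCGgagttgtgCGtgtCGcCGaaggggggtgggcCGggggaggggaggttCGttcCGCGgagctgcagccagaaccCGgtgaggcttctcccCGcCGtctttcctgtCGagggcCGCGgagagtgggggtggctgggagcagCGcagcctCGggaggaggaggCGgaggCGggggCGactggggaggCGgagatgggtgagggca
Sgms1, upstream window (chr19:32388050-32388299, minus strand): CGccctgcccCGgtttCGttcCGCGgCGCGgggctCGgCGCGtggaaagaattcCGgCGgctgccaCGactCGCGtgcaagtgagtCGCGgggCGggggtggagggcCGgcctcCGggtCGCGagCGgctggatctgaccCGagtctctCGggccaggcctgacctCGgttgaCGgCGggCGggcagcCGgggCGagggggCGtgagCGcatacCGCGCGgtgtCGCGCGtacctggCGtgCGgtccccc

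In Rbms1, which encodes an RNA-binding protein, the peak had a fold enrichment of 7.39 and its summit lay 127 bp before an internal start, 82.3 kb from the nearest gene end. In Zmym5, a zinc finger gene, it had a fold of 6.62 and lay 19 bp before the start. In Sgms1, which encodes a sphingomyelin synthase of the Golgi, it had a fold of 6.52 and lay 12 bp before the start. The 250 bases shown hold 38, 23 and 41 CpG dinucleotides in these genes, and none of the 3 windows of 300 bases holds GTAAACA or ATAAACA on either strand.

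Forkhead letters were rare in these windows. GTAAACA or ATAAACA, searched on both strands (TGTTTAC and TGTTTAT on the other), stood in 3 of the 96 windows (3.13%, exact 95% interval 0.649 to 8.86%). Over all listed windows the share was 7.97%, and over the 5543 windows with at least as many CpG as the lower quartile of the 96 it was 2.44%. The 533 windows of Foxc2-only peaks at gene ends gave 2.81%. Windows with a summit that both antibodies called, wherever the peak lay, gave 20 of 55 (36.4%, exact 95% interval 23.8 to 50.4%) at a median of 27 CpG, and windows with a Foxc1-only summit gave 56 of 146 (38.4%, exact 95% interval 30.4 to 46.8%) at a median of 15.5 CpG. Of the 8 windows under shared gene-body peaks 5 held a match, at a median of 20 CpG. These medians are all below the 32.5 of the Foxc2-only gene-body windows, and the part of CpG content in the difference was not tested. A match is a description of the letters and not a binding site, and 7 letters found nowhere in a window say nothing about the factor. The 2 gene-body windows with a match before the start are shown next, followed by a pair of windows under shared peaks for comparison, all with the forkhead letters in capitals.
Sgms1, internal window (chr19:32349317-32349566, minus strand): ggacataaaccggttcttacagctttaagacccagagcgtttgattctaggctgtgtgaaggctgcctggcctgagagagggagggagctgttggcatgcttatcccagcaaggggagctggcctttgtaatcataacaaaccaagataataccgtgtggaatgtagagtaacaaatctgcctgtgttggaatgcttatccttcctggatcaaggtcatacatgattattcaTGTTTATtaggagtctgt
9530026P05Rik, inside Adamts9 (chr6:92940332-92940581, plus strand): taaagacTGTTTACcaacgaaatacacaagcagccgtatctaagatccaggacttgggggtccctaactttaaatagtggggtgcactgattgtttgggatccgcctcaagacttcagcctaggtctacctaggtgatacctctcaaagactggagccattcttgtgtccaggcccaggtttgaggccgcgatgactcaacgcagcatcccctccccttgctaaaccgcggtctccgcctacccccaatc
Peli2, shared peak (chr14:48120619-48120868, plus strand): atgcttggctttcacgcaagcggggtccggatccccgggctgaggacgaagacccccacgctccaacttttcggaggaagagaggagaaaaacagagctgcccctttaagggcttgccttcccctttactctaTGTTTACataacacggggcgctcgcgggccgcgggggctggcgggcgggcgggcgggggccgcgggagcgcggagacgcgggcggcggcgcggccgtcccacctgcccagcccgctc
Btg1, shared peak (chr10:96616751-96617000, plus strand): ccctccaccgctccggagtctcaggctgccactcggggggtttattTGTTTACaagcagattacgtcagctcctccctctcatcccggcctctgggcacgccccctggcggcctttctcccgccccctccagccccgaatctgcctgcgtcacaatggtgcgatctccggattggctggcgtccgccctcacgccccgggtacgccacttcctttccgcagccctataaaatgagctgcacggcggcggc

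Sgms1 held both kinds of window. The internal one lay 40.4 kb from the gene end under a peak of fold 4.97, with 4 CpG in its 300 bases against 51 in the upstream one, and TGTTTAT began 18 bases before the start. The middle of these letters stood 111 bp downstream of the summit. The window of the noncoding gene 9530026P05Rik lay under a peak of fold 4.47, with TGTTTAC 243 bases before its start and the summit, 240 bp before it, at the middle of those letters. In the shared windows TGTTTAC began 117 bases before the start of Peli2 and 204 before that of Btg1, both at gene ends, in 300 bases with 38 and 25 CpG. The middle of the letters stood 47 bp upstream of the summit in Peli2 and 71 bp upstream in Btg1.

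**Figure D2:**
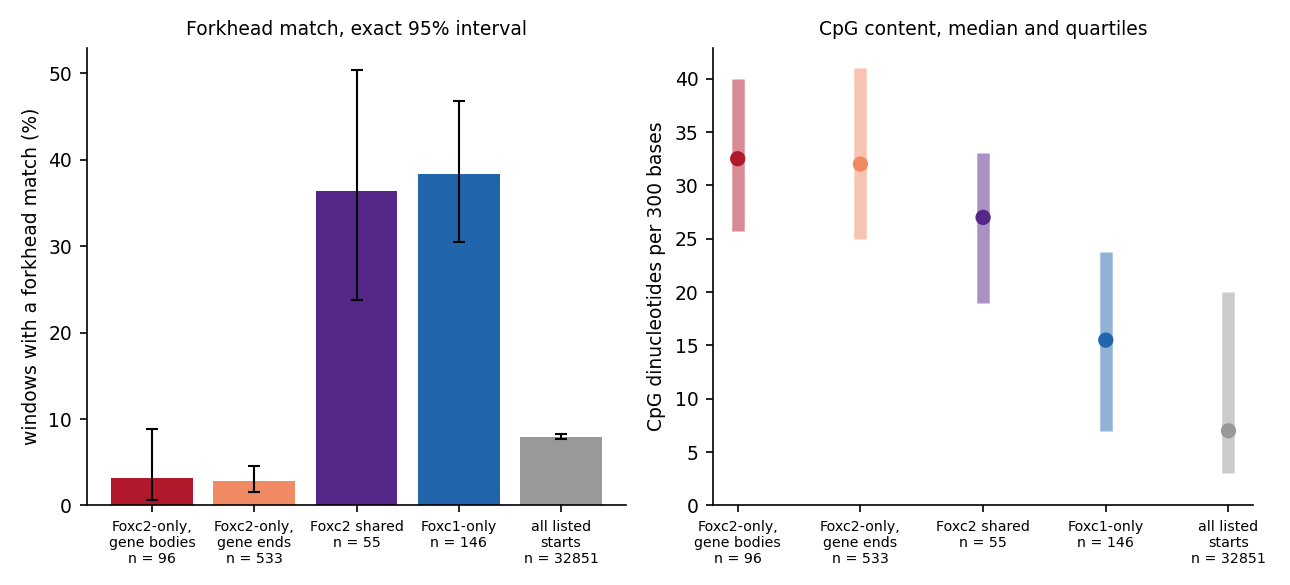
Left, share of listed promoter windows holding a summit that contain a forkhead match (%, bars, with exact 95% intervals); right, CpG dinucleotides per 300 bases in the same windows (dots are medians, thick bars run between quartiles). Windows under Foxc2-only gene-body peaks stand at 3.13% and a median of 32.5 CpG, close to Foxc2-only peaks at gene ends and apart from shared (36.4%) and Foxc1-only peaks (38.4%).

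Fold enrichment differed with the distance to a start. A fold here is the ratio of signal at the summit to local background that the authors' peak caller gave, and it was compared within the Foxc2 list only. The 694 peaks had a median fold of 4.13 (order-statistic 95% interval 4.0 to 4.29, quartiles 3.61 and 4.81), between the lowest of 2.10 and the highest of 11.9. The 229 at listed starts had a median of 3.86 (95% interval 3.78 to 3.95) and the 440 beyond 1 kb one of 4.30 (4.17 to 4.46). A fold of 5 or more was reached by 22 of the 229 (9.61%, exact 95% interval 6.12 to 14.2%) and by 110 of the 440 (25%, exact 95% interval 21.0 to 29.3%), against 18.1% of all Foxc2 peaks. From 10 to 30 kb away the share was 28.9% (35 of 121), and above 100 kb it was 13.8% (9 of 65). Foxc2-only peaks at gene ends had a median fold of 3.78, Foxc2-only intergenic peaks 4.27, and shared peaks inside gene bodies 4.81. Folds were coarse, with 164 distinct values over the 694 peaks, so ties are common.

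**Figure D3:**
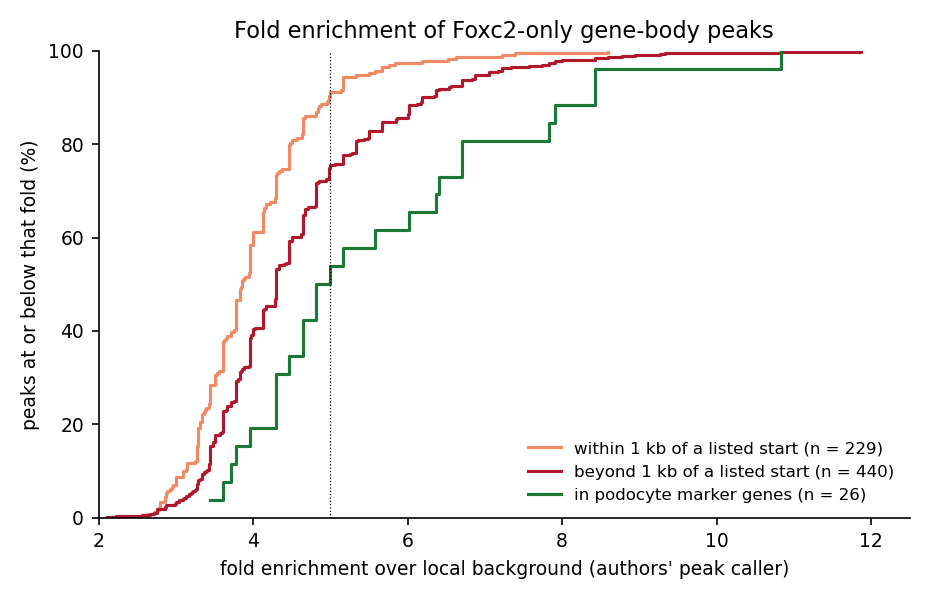
Cumulative share of peaks (vertical axis, %) at or below each fold enrichment (horizontal axis), for peaks within and beyond 1 kb of a listed start and for the 26 peaks in podocyte marker genes, most of which are also in the second curve; the dotted line marks a fold of 5. The curve of peaks at starts rises first, with 9.61% above the line, followed by peaks beyond starts (25%) and those in podocyte genes (50%).

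The strongest peak of the set lay in Maml3, a coactivator of Notch signalling, at chr3:52101952-52103013. It had a fold of 11.9, its summit was 3.10 kb from the gene end and 2.79 kb downstream of a listed start of Maml3, and the nearest Foxc1 summit stood 1.01 kb away without overlap. Srgap1, whose product acts below Slit and Robo receptors, held the next (chr10:121955805-121956256), with a fold of 10.8, 91.9 kb from a gene end and 74.0 kb from a Foxc1 summit. Peaks in Arhgef16, a guanine nucleotide exchange factor (fold 9.33), Sdc4, the heparan sulfate proteoglycan syndecan-4 of focal adhesions (9.26), and Cdc14a, a phosphatase (8.94), followed. The peaks of Tsc22d1, Osbpl9, Zfp423 and Lmx1b had folds of 8.77, 8.6, 8.6 and 8.43, and that of Ildr2 had one of 8.42. Lmx1b, a homeodomain factor that podocytes need, held its peak at chr2:33605845-33606262, 35.1 kb from a gene end. Of the 20 strongest, down to a fold of 7.22, which further peaks also had, 3 lay at a listed start, in Zfp423, Rbms1 and Nav2, and 16 lay more than 5 kb from a gene end. The others among the 20 were in Lrrfip1, Kirrel, Otud7b, Col4a3, Tenm4, Ror1, Mylk3 and Mgat5, with folds from 8.0 down to 7.22. Maml3 and Col4a3 were those with a Foxc1 summit within 10 kb.

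The peaks lay in 588 genes, 2.69% of the 21887 protein-coding genes, and 11 of the peaks lay in more than 1 gene at once. Single peaks were found in 505 genes, 2 peaks in 61 and 3 or more in 22. Host genes were long, with a median span of 77.5 kb against 17.2 kb for all protein-coding genes. This follows at least in part from the rule of place, under which the shortest genes cannot hold a peak of the set. A peak was held by 0.429% of genes up to 10 kb long, 1.74% of those from 10 to 30 kb, 3.92% from 30 to 100 kb, 9.62% from 100 to 300 kb and 11.3% above that. Counts for long genes below are to be read against these shares.

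Zbtb7c, a gene of the BTB and zinc finger family on chromosome 18, held the most peaks, 8 over 129 kb of its 328 kb span, with folds of 6.53, 6.19, 4.71, 4.64, 4.0, 3.78, 3.61 and 3.14. A further Foxc2 peak in it was shared with Foxc1. Mcc, also on chromosome 18, held 5, with folds from 6.00 to 3.95, and 5 Foxc1 peaks at other places. Of the genes with 4, Zfp423, a zinc finger cofactor of BMP signalling, had folds of 8.6, 5.16, 4.95 and 3.61 within 26.6 kb, 2 of them at listed starts. Nav2, a cytoskeletal protein of neurite growth, had folds of 7.22, 6.83, 4.0 and 3.33 in 2 pairs 198 kb apart end to end, and its span of 651 kb held no Foxc1 peak. The integrin chain gene Itgb5 had folds of 4.64, 4.30, 4.29 and 4.29, beside 4 shared Foxc2 peaks and 7 Foxc1 peaks in the same span. Tjp1, which encodes the junction scaffold ZO-1, had folds of 4.64, 4.30, 3.95 and 3.86 over 48.5 kb. The remaining gene with 4 was Sgms1, described above.

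Among the 22 genes with 3 or more peaks, Tns2 and Sdc4 had the most for their length, 16.7 and 15.8 per 100 kb of span. Sdc4 held 3 in a span of 18.9 kb, with folds of 9.26, 4.86 and 4.67 within 5.69 kb, and no Foxc1 peak lay in its span. Tns2, a tensin of focal adhesions mutated in nephrotic syndrome, held 3 in 17.9 kb, with folds of 3.95, 3.44 and 3.22, and here the edge of a Foxc1 peak came within 2 bp of one of them. The longer gene Abr, a regulator of Rac, had folds of 6.35, 4.13 and 3.33 within 12.6 kb and no Foxc1 peak in 207 kb. Lrch1 and Arhgap23 also held 3 each, with highest folds of 6.71 and 5.16.

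**Figure D4:**
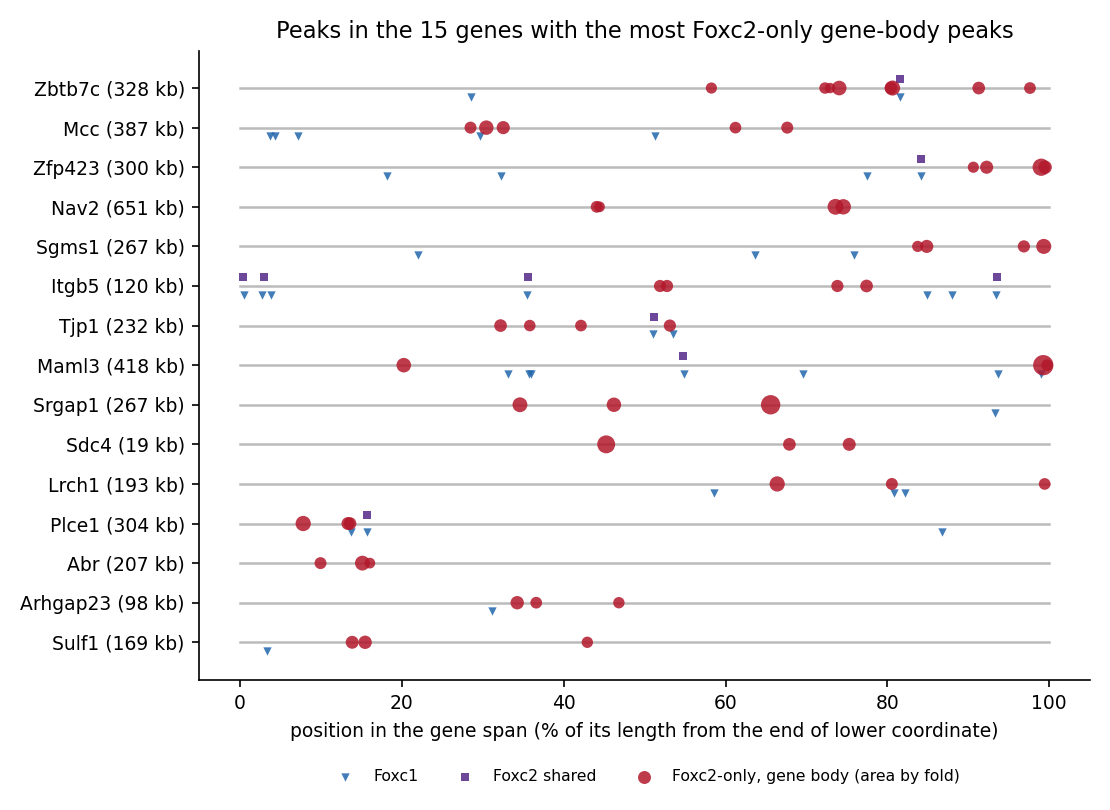
Position of peak summits (horizontal axis, % of the gene span from its end of lower coordinate) in the 15 genes with the most Foxc2-only gene-body peaks; circles are those peaks with area proportional to fold, squares shared Foxc2 peaks and triangles Foxc1 peaks. Peaks of Zbtb7c spread over 129 kb, those of Zfp423 and Sgms1 gather toward one end, and Nav2, Sdc4 and Abr have no triangle.

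Podocyte marker genes held these peaks more often by count than protein-coding genes at large. The lists were chosen with earlier results of these data known, so their counts are a description and carry no test. Of 40 podocyte markers, 17 held a peak (42.5%, exact 95% interval 27.0 to 59.1%), against 2.69% of all protein-coding genes. Holding peaks was not particular to this set. Of the same 40 markers, 21 held a Foxc1-only gene-body peak and 6 a shared one. No share over all protein-coding genes was computed for either count. A Foxc1 peak lay in the span of 13 of the 17. Of all 588 host genes 46.8% had one, of hosts above 100 kb 69.5%, and of all protein-coding genes 9.53%. The markers are long, with a median span of 76.3 kb. Among the 17 markers above 100 kb 11 held a peak, where 10% of all protein-coding genes of that length did, and among the 23 shorter markers 6 did, where 1.77% did. A peak beyond 1 kb of a listed start was held by 14 of the 39 markers outside chromosome 18, against 1.75% of all protein-coding genes there. Their 26 peaks had a median fold of 4.91 (order-statistic 95% interval 4.30 to 6.4) against 4.13 for the 668 in other genes (3.95 to 4.14), and 13 of the 26 reached a fold of 5 (50%, exact 95% interval 29.9 to 70.1%) against 18.3% of the others. Only 2 of the 25 that could be placed lay at a listed start (8%, exact 95% interval 0.984 to 26.0%), against 35.2% of the peaks in other genes. Of all peaks of the set beyond 1 kb of a listed start, 25% reached a fold of 5. The part of place in the difference in fold was not tested.

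Of the podocyte markers, Srgap1 held 3 peaks, with folds of 10.8, 6.36 and 6.02, each at least 91.9 kb from a gene end. Plce1, the phospholipase C epsilon gene mutated in nephrotic syndrome, held 3, with folds of 6.71, 4.81 and 4.64, all in the first 25% of the gene, and a Foxc1 summit lay 0.415 kb from the weakest. Sulf1, which encodes an enzyme that edits heparan sulfate outside the cell, held 3 at 5.16, 4.81 and 3.71, and Arhgap24, a Rac-inactivating protein, 3 at 4.47, 4.30 and 3.61. Both peaks of Lmx1b, at 8.43 and 6.71, lay 0.688 kb apart. Ildr2, an immunoglobulin-like membrane protein gene, had 1 of 8.42. Kirrel, the slit diaphragm protein Neph1, had 1 peak of 7.91 at chr3:87165294-87165702, 255 kb from the nearest Foxc1 summit. Col4a3, a collagen chain of the glomerular basement membrane, had 1 of 7.83 at chr1:82603429-82603826, and Sema3g, a semaphorin made by podocytes, 1 of 6.4 in a span of 12.48 kb. The single peaks of Dach1, Ptpro, Tmem150c, Nebl, Synpo and Cd2ap had folds from 5.0 to 3.44.

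The pair of podocyte peaks at listed starts lay in the longest markers. In Magi2, the scaffold of the slit diaphragm, the peak of fold 5.57 stood 155 bp from the start of the noncoding gene 4921504A21Rik and 7.32 kb from the end of Magi2. In Robo2, a receptor for Slit, the peak of fold 4.30 (chr16:74411420-74411926) stood 44 bp from an internal start of Robo2 itself, 520 kb from any gene end. The remaining 23 markers held no such peak. Of those, 13 had another Foxc2 peak in the span or within 1 kb of it, in 12 of them a Foxc2-only peak at a gene end, as in Wt1 and Podxl, and 10 had none, Nphs1 and Tcf21 among them. For these counts, too, no share over all protein-coding genes was computed. Clic5 had its 2 Foxc2 peaks shared with Foxc1.

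The other podocyte lists share genes with the markers and are not independent of them. Their shares, too, are to be read against the 2.69% of all protein-coding genes, and against 10% for genes above 100 kb and 1.77% for shorter ones. Of 32 genes of the slit diaphragm and of cell polarity, 10 held a peak (31.3%, exact 95% interval 16.1 to 50.01%), among them Tjp1 with 4, Pard3 with 1 of fold 6.71 and the kinase gene Fyn with 1 of 4.67. By length, 7 of 16 genes above 100 kb and 3 of 16 shorter ones held a peak. Of 37 genes of actin and focal adhesion, 12 did (32.4%, exact interval 18.01 to 49.8%), led by the tensin genes Tns3 (3, highest 4.81) and Tns2, followed by Parva, which encodes parvin alpha (2, highest 4.0), Palld, an actin bundling protein (1 of 7.22), and Actn4, alpha-actinin-4 (1 of 4.81). By length the counts were 6 of 17 and 6 of 20. Of 47 nephrotic syndrome genes, 13 did (27.7%, exact interval 15.6 to 42.6%), including the formin gene Daam2 with 2, the higher at 6.19. By length the counts were 9 of 17 and 4 of 30.

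Chromatin and hormone regulators held peaks both at and away from listed starts. Of 36 chromatin regulators, 10 held a peak (27.8%, exact interval 14.2 to 45.2%, against 2.69% of all genes), with 6 of their 13 peaks at listed starts, among them both of the histone deacetylase gene Hdac4 (highest 3.39), both of the remodeller gene Arid1a (3.78) and the one of the DNA demethylase gene Tet3 (4.86). Hdac5 held 2 away from starts (highest 4.30), and the demethylase gene Kdm6b 1 of 5.25. By length, 5 of 14 chromatin genes above 100 kb held a peak (10% of all genes of that length) and 5 of 22 shorter ones (1.77%). Of 41 nuclear receptors and steroid response genes, 9 did (21.95%, exact interval 10.6 to 37.6%), 4 of 18 above 100 kb and 5 of 23 shorter ones. Per1, a clock gene induced by glucocorticoids, held 2 (highest 5.33), the retinoic acid receptor gene Rarg 2 (4.30), Nr4a1 1 of 5.13, the coactivator gene Ncoa2 1 of 4.47, and the glucocorticoid receptor gene Nr3c1 1 of 2.36.

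Guidance, matrix and pathway lists are given next, and no difference between lists was tested. Axon guidance gave 7 of 36 (19.4%, exact interval 8.19 to 36.0%). By length, 3 of 24 genes above 100 kb held a peak (10% of all genes of that length) and 4 of 12 shorter ones (1.77%). Plxnb1 (both at listed starts) and Sema5a had 2 peaks each (highest 4.47 and 4.30). Sema3g, Slit3 (5.85) and Robo2 were also among the 7. Basement membrane and integrins gave 4 of 33 (12.1%, exact interval 3.40 to 28.2%), by length 3 of 16 and 1 of 17. These were Itgb5, Col4a3, Itgav, whose peak of fold 5.50 lay at a listed start, and Col4a1 (2.86). Podocyte transcription factors gave 4 of 25 (16%, exact interval 4.54 to 36.1%), Zbtb7c, Lmx1b, Dach1 (5.0) and the TEAD factor gene Tead1 (4.83). Here the counts by length were 3 of 9 and 1 of 16. The Hippo pathway gave 3 of 25 (12%, exact interval 2.55 to 31.2%), with Vgll4, a TEAD cofactor, at 2 (highest 4.13), Tead1 and Amotl2 (4.13). Notch gave 2 of 27 (7.41%, exact interval 0.910 to 24.3%), Maml3 with folds of 11.9, 6.13 and 3.95 and Rbpj, the DNA-binding factor of the pathway, with 1 of 3.87. TGF-beta and BMP gave 2 of 33 (6.06%, exact interval 0.743 to 20.2%), the inhibitory Smad6 (4.30) and the receptor gene Tgfbr2 (3.78). The Wnt pathway gave 1 of 33 (3.03%, exact interval 0.0767 to 15.8%), Ror1 (7.57), and the forkhead family 1 of 42 (2.38%, exact interval 0.0603 to 12.6%), Foxp1 (4.13). The intervals of the Hippo, Notch, TGF-beta, Wnt and forkhead lists include the 2.69% of all protein-coding genes. No peak of the set lay in Foxc1, Foxc2 or Wt1.

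These peaks were also counted in lists for other kidney cells, for VEGF and angiopoietin signalling and for ribosomal proteins. None was found in 28 mesangial and pericyte genes, 28 markers of distal tubules and collecting ducts, 26 immune genes, 18 genes of VEGF and angiopoietin signalling or 16 of the parietal epithelium, whose exact 95% intervals reach up to 12.3, 12.3, 13.2, 18.5 and 20.6%. Glomerular endothelium gave 1 of 32 (3.13%, exact interval 0.0791 to 16.2%), Ets1 with 2 peaks (highest 3.83). Proximal tubule gave 2 of 32 (6.25%), Cubn (4.99) and Keg1 (4.71). Cytosolic ribosomal proteins gave 1 of 32, Rps2, with a peak within 1 kb of a listed start. Median spans were 5.51 kb for immune genes, 18.7 kb for endothelium, 33.3 kb for mesangium, 48.8 kb for VEGF signalling and 64.8 kb for parietal epithelium. The podocyte list had 76.3 kb. The intervals of all lists in this paragraph include the 2.69% of all protein-coding genes, so none of them is set below that share.

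**Figure D5:**
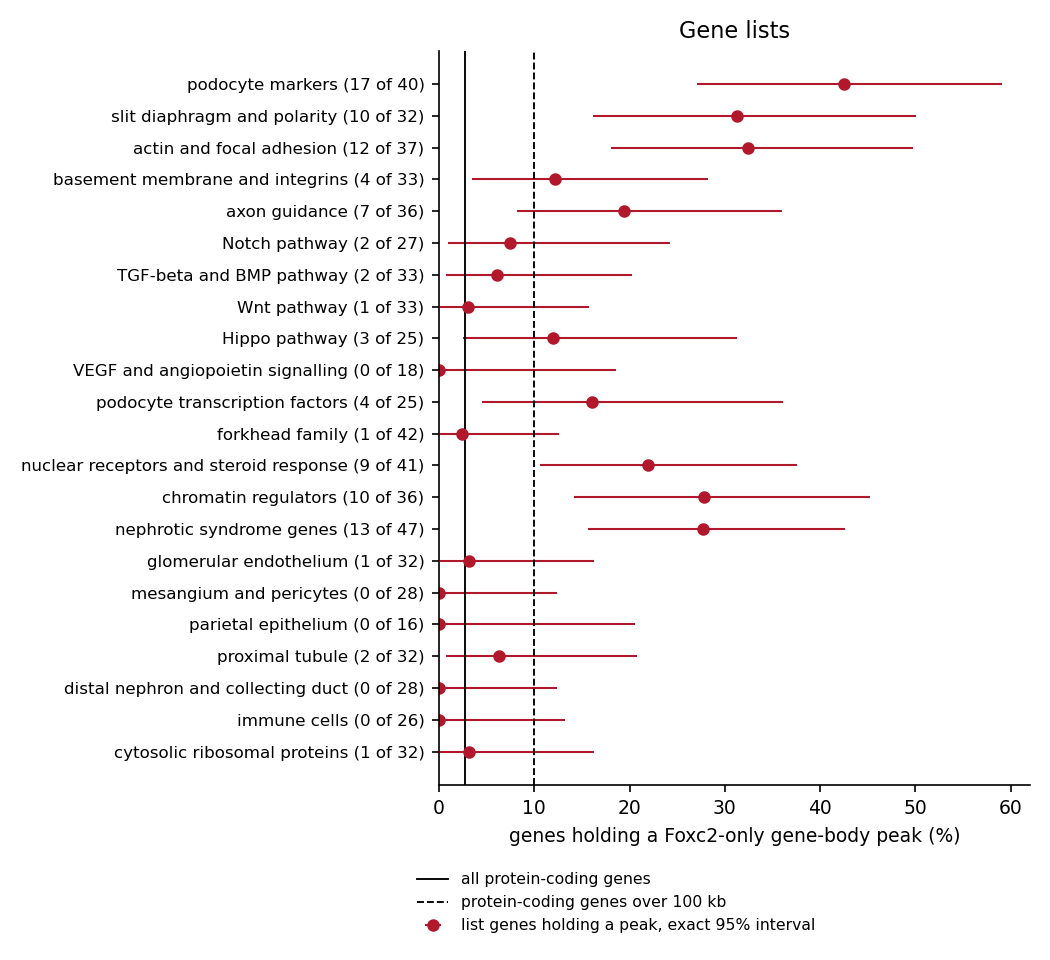
Share of the genes of 22 lists that hold a Foxc2-only gene-body peak (dots, %, with exact 95% intervals), beside the share of all protein-coding genes (solid line, 2.69%) and of protein-coding genes over 100 kb (dashed line, 10%). Podocyte markers stand at 42.5%, while the VEGF, mesangial, parietal, distal nephron and immune lists stand at 0. The intervals of those lists at 0 include the solid line.

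Beyond the starts, the peaks were spread along the gene. Strand was known for the host of 549 peaks, of which 43.4% lay in the first 25% of the gene, counted from its start, and 14.9% in the last 25%. Without the peaks at listed starts the shares were 29.1 and 22.3% of 323, close to the 28.9 and 21.5% of 1890 Foxc1-only gene-body peaks treated in the same way. The median distance to the nearest gene end was 10.5 kb (quartiles 2.69 and 37.8), the largest 549 kb, and 124 peaks (17.9%) lay more than 50 kb from any.

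A Foxc1 peak often lay at some distance in the same gene, but 313 of the 588 host genes held none. The nearest Foxc1 summit stood at a median of 40.8 kb (quartiles 12.52 and 117 kb), within 1 kb for 23 peaks, within 10 kb for 158 (22.8%) and beyond 100 kb for 197 (28.4%). For Foxc2-only peaks at gene ends the median was 68.5 kb and 15.5% had one within 10 kb. For Foxc2-only intergenic peaks these values were 52.3 kb and 20.4%, nearer to those of the set. Peaks at listed starts had a Foxc1 summit within 10 kb in 15.7% of cases and those beyond in 25.9%. A Foxc1 peak lay in the span of 275 of the 588 host genes (46.8%), against 9.53% of all protein-coding genes, and in 69.5% of hosts above 100 kb against 35.7% of all genes of that length. Whether both lists were called against the same input library is not stated.

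The values at the limits of the rule are given without a test. The 3 peaks just inside the 1 kb limit lay 1003, 1007 and 1010 bp from a gene end, in Pigv, Cables1 and Tmem106c, with folds of 3.44, 3.61 and 3.95. The 3 just outside, within gene spans, lay at 998, 998 and 978 bp in Spaca6, Rnf169 and Zfp710, with folds of 4.99, 3.95 and 3.27. The closest Foxc1 peak edges without overlap were 2, 4 and 14 bp away, at peaks in Tns2, Metrnl and Mbnl1, and the smallest overlaps of gene-body peaks counted as shared were 12, 29 and 61 bp, in Ets1, Plpp3 and Mllt10.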

How the data were processed

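ChIP-seq peak lists for Foxc1 and Foxc2 were analysed, 1 library each, with groups taken from the sample titles. The input library was not analysed here. Per the submitters' processing notes, the build was mm10 and the tools included Bowtie2, an aligner, and MACS2, a peak caller. Their versions and settings, the control and any pooling are not given in those notes. Per peak, the deposited lists give a fold enrichment (a ratio to local background), −log10 p-values and q-values, and the summit's offset from the peak's start in bases. The deposited score, a truncated multiple of the −log10 q-value, was left aside.

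Of 5213 Foxc1 and 2881 Foxc2 peaks, 6 and 3 on other sequences were left out. Gene spans (21887 protein-coding genes) and 32851 promoter windows came from RefSeq tables of GRCm38.p6. The windows cover 17492 of the protein-coding genes and not chromosome 18, so a peak beyond 1 kb of a listed start may lie at an unlisted one. No genome was given, and the planned motif count around summits was run on promoter windows instead. Of the symbols in 24 gene lists, 1 was not matched. Results on 2 lists and some genes are not reported here.

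The peaks, lists and tests were chosen with earlier results of these data known, and the split at listed starts was added after seeing the data. Named were the 20 strongest peaks, the 15 genes with the most peaks, up to 5 genes per list, 11 fixed genes and 3 peaks on each side of the limits. A selection of these is given. Genes named for having no peak, those given as lower ranks of a list, and windows shown as sequences were chosen after their values were seen. Intervals are exact Clopper-Pearson for shares and binomial order-statistic for medians, at 95% (Python 3.11.15, scipy 1.17.1). Calculations were tested on simulated data. Alternatives covered the overlap, the distance to gene ends, the genes whose ends count, stricter q and fold thresholds, the midpoint in place of the summit, the limit and genes for starts, and the motif.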

Additional observations from a re-analysis of the deposited data

How the results depend on the processing

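The 11 results below were recomputed under 8 planned settings and 3 chosen after seeing the data, 93 values in all, of which 62 stayed within the interval of the reported value (for counts, within 1.5 times it). With gene ends kept more than 2.5 kb away, the share of Foxc2-only peaks in the set was 21.5%, the median distance to a gene end 21.0 kb and the share at listed starts 28.6%. At 5 kb there were 446 peaks (18.2% of Foxc2-only peaks) in 367 genes, with a median fold of 4.30, a median distance of 28.0 kb and 23.0% at listed starts. With the ends of all RefSeq genes these shares were 25.2% of Foxc2-only peaks and 30.3% at starts, and the distance 6.64 kb. With q-values of 1e-05 or less, 396 peaks (33.2%) lay in 348 genes, 40 of them with 2 or more peaks, at a median fold of 4.64, a median of 14.4 kb from a gene end and 26.7% at starts. With folds of 5 or more, 135 peaks (37.8%) lay in 124 genes, 12 with 2 or more peaks, at a median fold of 6.02, medians of 14.3 kb to a gene end and 24.7 kb to a Foxc1 summit, and 16.7% at starts. There 10 podocyte markers held a peak, 9 of them beyond starts (14 as reported), and 0% of windows had a forkhead match (exact interval up to 28.5%). Counting starts within 0.5 kb gave 29.3%. Raising the fold, the q-value or the distance removes peaks by construction, and the cause of other shifts was not tested. Counting Foxc1 peaks within 500 bp as shared, asking for 50% overlap, or using midpoints moved none of the 11 results. The motif count around summits and its 2 alternatives were not run, and no paired analysis was possible because each antibody had 1 library. Depth is unknown, so peaks missed in either list cannot be counted.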

Other observations

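All 19 autosomes held Foxc2-only gene-body peaks, from 18 on chromosome 12 to 78 on chromosome 11. Per 1000 protein-coding genes, the counts were highest on chromosomes 15, 18 and 11 (49.0, 48.9 and 48.5) and, among autosomes, lowest on chromosome 7 (22.2). Chromosomes X and Y held none, in a list with 3 and 1 Foxc2 peaks there.

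Several peaks stood at internal starts far from any gene end. Beside Robo2 and Rbms1, named above, they lay in Nav2 (fold 4.0, 287 kb from a gene end), Pde10a, a phosphodiesterase gene (3.95, 185 kb), Phactr2 (3.29, 117 kb), Ssh2, which encodes a cofilin phosphatase (3.61, 112 kb), and Phldb2 (4.64, 98.1 kb), each within 0.3 kb of a start of the same gene. In all, 32 peaks at listed starts lay more than 30 kb from a gene end. These genes were chosen after their values were seen. A peak in Syna (fold 4.99) overlapped a microRNA hairpin, Mir7228.

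Of the 694 peaks, 120 had another of the set within 10 kb, and 21 were among the 100 Foxc2 peaks of highest fold. The set made up 24.1% of all Foxc2 peaks, so the 21 are near its share. No share over all Foxc2 peaks was computed for the 120.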
